A study of Homo sapiens with 45 samples.

Results

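The 9 genes described here are EGFR, ERBB3 and ERBB4, receptors of the epidermal growth factor receptor family, and 6 of the ligands of that family, AREG, TGFA, EREG, HBEGF, BTC and NRG1. They were taken by gene symbol from the 57353 symbols of a count table of 45 RNA sequencing libraries, and ERBB2, the remaining receptor, was left out by that choice. The libraries come from 3 estrogen receptor-positive human breast cancer lines, MM134 (MDA MB 134VI) and MM330 (MDA MB 330) from invasive lobular carcinoma and HCC1428 from invasive ductal carcinoma, with 5 groups of 3 libraries in each. All cells were first deprived of hormone for 3 days in charcoal-stripped serum. The siER_E2, siFOXA1_E2 and siMDC1_E2 groups were transfected with small interfering RNA (siRNA) against the estrogen receptor, the forkhead factor FOXA1 or the DNA damage mediator MDC1, and after 24 h were given 100 pM estradiol (E2). The siNT_E2 group had a non-targeting siRNA and E2, and the siNT group had the non-targeting siRNA and the vehicle, 0.01% ethanol. RNA was taken 24 h after E2 or vehicle. Every knockdown group therefore also carried E2, so an effect on the basal level and an effect on the response to E2 cannot be told apart here.

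Receptors of this family sit in the cell membrane, come together when a ligand binds, and phosphorylate each other, which turns on the MAPK and PI3K-AKT relays. AREG and TGFA bind EGFR, while EREG, HBEGF and BTC bind EGFR and ERBB4, and NRG1 binds ERBB3 and ERBB4. ERBB3 has a weak kinase of its own and signals mainly through a partner receptor. The ligands are made as membrane proteins and are released by proteases such as ADAM17, and in the mouse mammary gland Areg carries the estrogen signal to neighbouring cells during duct growth.

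AREG and EREG lie side by side on chromosome 4, with 56.4 kb between them, and both encode ligands of EGFR. The sequence before each start is therefore shown beside the levels that follow. The 250 bases before the transcription start are given from RefSeq (GRCh38.p14, plus strand), and capitals mark the motifs that were found, TATAAA (the TATA box) and TGACGTCA (the cyclic AMP response element, CRE).
AREG, chr4:74444886-74445135: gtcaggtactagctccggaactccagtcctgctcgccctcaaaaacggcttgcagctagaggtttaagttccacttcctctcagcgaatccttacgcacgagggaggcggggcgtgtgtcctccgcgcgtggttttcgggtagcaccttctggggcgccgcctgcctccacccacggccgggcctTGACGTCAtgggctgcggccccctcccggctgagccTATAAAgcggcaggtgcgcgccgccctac
EREG, chr4:74364895-74365144: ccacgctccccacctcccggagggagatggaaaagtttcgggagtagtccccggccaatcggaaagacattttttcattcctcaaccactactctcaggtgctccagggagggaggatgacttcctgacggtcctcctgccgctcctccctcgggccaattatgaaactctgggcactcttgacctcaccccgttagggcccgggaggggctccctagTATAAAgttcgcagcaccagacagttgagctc
The window of AREG held TATAAA 29 bases before the start and TGACGTCA 65 bases before it, and that of EREG held TATAAA 32 bases before the start. In windows from 250 bases before to 50 bases after the start, TATAAA on the gene's strand was in 7.33% of 35116 promoters and TGACGTCA on either strand in 1.85%. The palindromic estrogen response element (GGTCA and TGACC with 3 bases between them, 0.0569% of promoters), TGANTCA (AP-1, 7.71%) and TGTTTAC (a forkhead motif, 3.42%), searched on both strands, were not found in either window. A match or a missing match describes these letters in this window and not a binding site. Windows of 7 of the 9 genes were searched, and ERBB3 and NRG1 were not among them. Of the others searched, the BTC window held the forkhead motif, and EGFR and TGFA had 2 windows each. The windows of TGFA, ERBB4 and HBEGF held none of the motifs. The EGFR window at chr7:55018767-55019066, at the annotated gene start, held none of the motifs. The one at chr7:55109589-55109888, inside the gene, held AP-1 and TATA motifs.

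Library totals ran from 21043426 to 36738812 counts, and levels are given in counts-per-million (CPM) after scaling all 45 libraries together. A share of 0.337% to 0.494% of counts fell on processed pseudogenes in 11 libraries, against 0.123% to 0.158% in the other 34. The labels do not say whether libraries of the same group are separate cultures, and the p-values measure the spread between libraries, which may be technical. In siER_E2 cells ESR1 was left at 11.3% of its siNT_E2 level in MM134 and 7.82% in MM330 but at 51.0% in HCC1428. FOXA1 was left at 25.3%, 27.6% and 32.8% and MDC1 at 23.1%, 20.5% and 26.3% in the order MM134, MM330 and HCC1428. MDC1 was also below siNT_E2 in siER_E2, at 63.6%, 50.7% and 45.3%, and in siFOXA1_E2, at 77.8%, 61.1% and 55.0%, in that order. In siNT cells, which had no targeting siRNA, MDC1 stood at 98.9%, 71.7% and 38.45%. The part of these MDC1 levels in the results was not tested. Under the other siRNAs ESR1 stood in MM134 at 20.4% of the siNT_E2 level in siFOXA1_E2 and 22.6% in siMDC1_E2, in MM330 at 73.2% in siFOXA1_E2 and 51.7% in siMDC1_E2, and in HCC1428 at 91.9% in siFOXA1_E2 and 92.6% in siMDC1_E2. Of 8 luminal epithelial markers, all averaged at least 1 CPM in each line, and of 6 basal markers 5 averaged under 1 CPM in each line, the exception being TP63. Of 6 fibroblast markers 5 averaged under 1 CPM in each line (COL1A1 did not), as did all 5 immune markers and at least 3 of 4 endothelial markers. Between replicates the chi-square of the counts per degree of freedom was 1.96 to 18, and no pair agreed within sampling noise. MM330 siFOXA1_E2 replicate 1, the library with the lowest total, stood apart from its group, with 14.1 and 16.5 against the other libraries and 3.09 between those. In HCC1428, siNT replicate 3 (13.4 and 10.6, against 2.82) and siNT_E2 replicate 2 (12.5 and 16.9, against 4.15) stood apart in the same way, and each was of the other pseudogene class than the rest of its group. Other groups that mixed both classes showed this in every line. Examples are MM134 siFOXA1_E2 replicate 1 (7.71 and 8.10, against 1.96) and MM330 siMDC1_E2 replicate 3 (6.52 and 7.54, against 2.64). The exception was MM330 siER_E2, with 18 and 7.71 for replicate 3 against 11.0.

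Log2 fold changes below are of the first-named group over the second, given ± standard error, with p-values of edgeR's quasi-likelihood test adjusted by the Benjamini-Hochberg method over all genes tested in that comparison, and a change is called at an adjusted p under 0.05. The filter on low counts left 6 of the 9 genes in MM134, 7 in MM330 and 8 in HCC1428. EGFR, EREG and NRG1 were not tested in MM134, HBEGF and NRG1 were not tested in MM330, and EREG was not tested in HCC1428. Within each line the comparisons share libraries: the 3 knockdown comparisons use the same siNT_E2 libraries, which also enter the E2 comparison.

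Levels can be compared between genes only per length of exon. Among EGFR, ERBB3 and ERBB4 (ERBB2 was not examined), ERBB3 had the highest level in every line. It stood at 27.3 CPM per kb in siNT_E2 and 57.5 CPM per kb in siNT of MM134, 40.4 and 45.3 in MM330, and 28.5 and 59.2 in HCC1428. In siNT_E2 and siNT cells AREG was the ligand with the highest level in the lobular lines, with 77.4 CPM per kb in siNT_E2 and 11.9 in siNT of MM134, and 16.1 in siNT_E2 and 6.06 in siNT of MM330. In HCC1428 the highest ligand was TGFA, with 7.61 CPM per kb in siNT_E2 and 6.64 in siNT, and AREG followed at 5.67 in siNT_E2 and 3.59 in siNT. In siFOXA1_E2 of MM134, TGFA stood at 4.23 CPM per kb and AREG at 3.81. ERBB4 stood at 3.42 CPM per kb in siNT_E2 and 8.12 in siNT of HCC1428, where EGFR stood at 2.58 in siNT_E2 and 2.88 in siNT. In siNT_E2 cells, MM134 was the line in which a ligand, AREG, exceeded ERBB3 per length of exon. In the MM134 knockdown groups, which also had E2, AREG lay below ERBB3. AREG stood at 9.19 against 58.3 CPM per kb in siER_E2, 3.81 against 21.5 in siFOXA1_E2 and 21.9 against 61.05 in siMDC1_E2. The lengths are of all annotated exons of a gene joined, so a gene expressed mainly as a short isoform is understated.

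**Figure D1:**
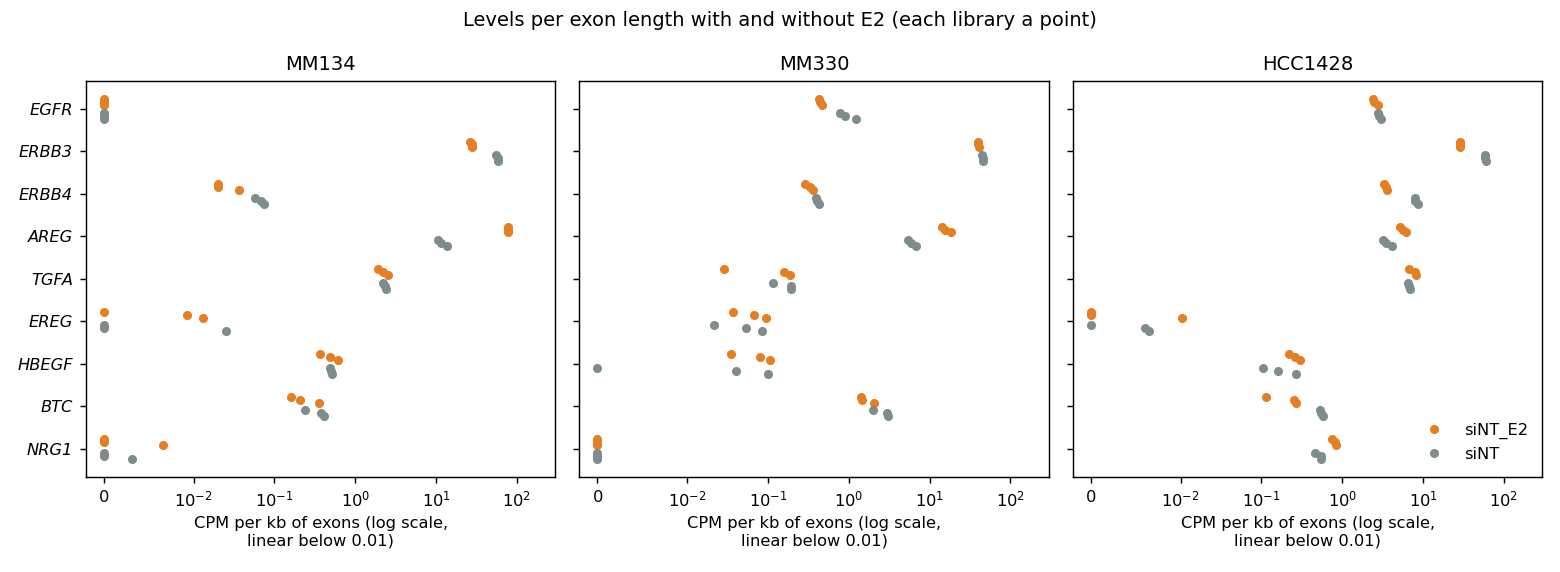
Levels in CPM per kb of exon (log axis, linear below 0.01) of the receptors and ligands in siNT_E2 and siNT cells, with each library as a point and a panel for each line. ERBB3 is at 27.3 to 59.2 as a group mean in all lines, and AREG in MM134 is at 77.4 in siNT_E2 against 11.9 in siNT.

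The lines differed widely in EGFR, ERBB4, TGFA and NRG1 and little in ERBB3. Between the siNT groups, 7 of the 9 genes were called between MM134 and HCC1428, 9 between MM330 and HCC1428 and 8 between MM134 and MM330, where 75.6%, 73.0% and 72.4% of all genes tested were called. EGFR had no count in any of the 15 MM134 libraries, and with a floor of 3 counts over the siNT group its level was at least 1155-fold lower in MM134 than in HCC1428 and at least 387-fold lower than in MM330. ERBB4 in siNT was 122-fold lower in MM134 and 19.8-fold lower in MM330 than in HCC1428. NRG1 had no count in MM330 siNT libraries, at least 169-fold lower than in HCC1428, and TGFA was 38.9-fold lower in MM330 than in HCC1428. BTC ran the other way, 4.81-fold higher in MM330 than in HCC1428. ERBB3 differed by -0.38 (log2) between MM330 and HCC1428 and by -0.04 between MM134 and HCC1428, the first called and the second not (edgeR adjusted p = 0.28).

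**Figure D2:**
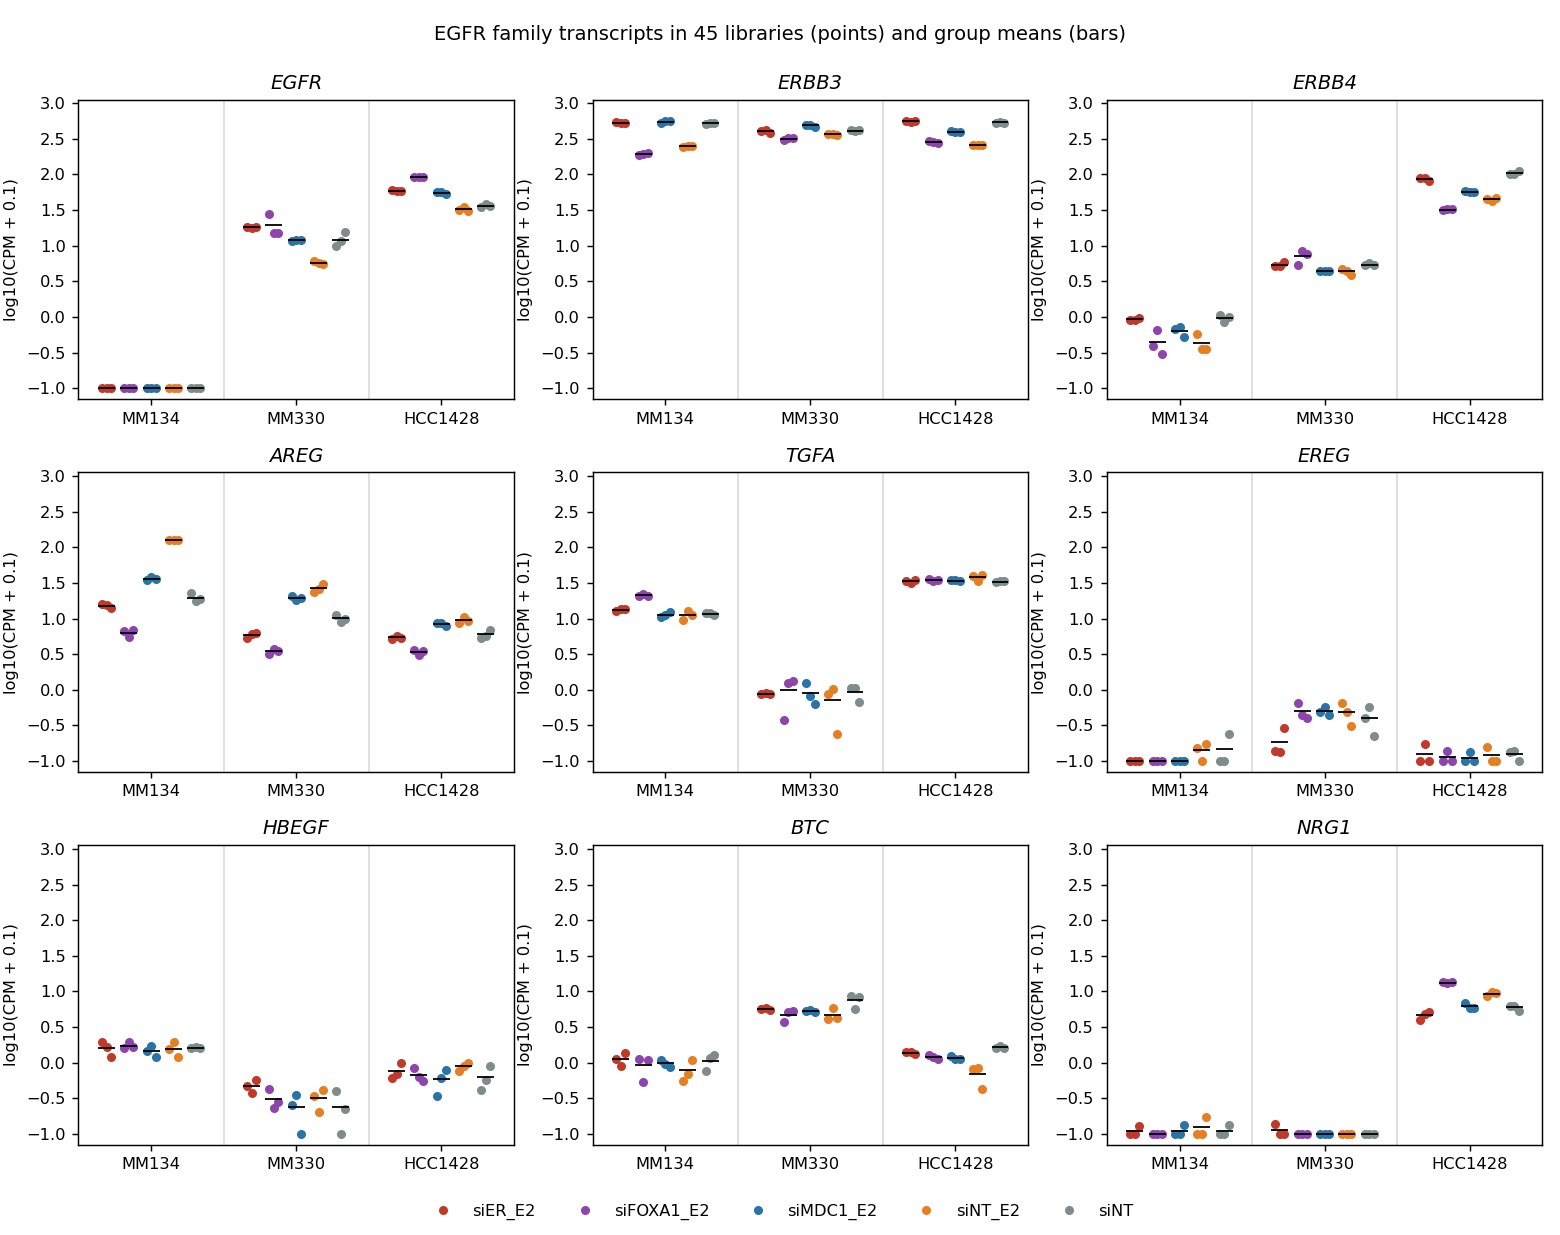
Level of each gene in every library (log10 of CPM plus 0.1), with a panel for each gene, points for the 3 libraries of a group, a bar at the group mean, and the groups siER_E2, siFOXA1_E2, siMDC1_E2, siNT_E2 and siNT in each line. EGFR lies at the bottom value, no count, in all MM134 libraries, and AREG is highest in MM134 siNT_E2, at 127 to 128 CPM.

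EGFR (ENSG00000146648.17, GRCh38 chromosome 7, 55019021 to 55211628, plus strand), the receptor of AREG and TGFA, was lower with E2 in MM330 and higher with each of the 3 knockdowns in both lines that express it. In MM330 it had 5.91, 5.57 and 5.36 CPM in siNT_E2, against 9.64, 11.4 and 15.2 CPM in siNT. All siNT_E2 libraries lay below all siNT libraries, and EGFR fell by 1.08 ± 0.22 on the log2 scale (edgeR adjusted p = 0.0013). The siER_E2 libraries of MM330 held 18.2, 17.5 and 18.2 CPM, the siFOXA1_E2 libraries 28.0, 15.2 and 14.96 CPM, and the siMDC1_E2 libraries 11.55, 11.85 and 11.79 CPM. Every one of these 9 libraries lay above the siNT_E2 libraries, with log2 rises of 1.67 ± 0.22 for siER_E2 (edgeR adjusted p = 1.4e-05), 1.79 ± 0.22 for siFOXA1_E2 (3.4e-06) and 1.06 ± 0.22 for siMDC1_E2 (0.0022). Without siFOXA1_E2 replicate 1 the siFOXA1_E2 rise was 1.39. Against siNT of MM330, EGFR in siMDC1_E2 differed by -0.03 ± 0.21 and in siER_E2 by 0.59 ± 0.21 (edgeR adjusted p = 0.053), not called. The siER_E2 libraries nevertheless all lay above the siNT libraries, and some of the alternative runs given at the end called this difference. The siFOXA1_E2 libraries of MM330 overlapped the siNT libraries, and the call of 0.70 (edgeR adjusted p = 0.01) was lost without siFOXA1_E2 replicate 1 (0.31, edgeR adjusted p = 0.059) or without siNT replicate 1 (0.55, edgeR adjusted p = 0.058).

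In HCC1428, EGFR had 31.3, 35.1 and 30.5 CPM in siNT_E2, against 35, 37.8 and 35.5 CPM in siNT. These groups overlap, and the call at -0.15 ± 0.05 (edgeR adjusted p = 0.019) was lost without siNT replicate 2 (-0.11, edgeR adjusted p = 0.1) or siNT_E2 replicate 2 (-0.12, edgeR adjusted p = 0.085), while without siNT_E2 replicate 3 the value was -0.25. The knockdowns gave larger differences, with 60.5, 57.8 and 59.0 CPM in siER_E2, 91.5, 93.2 and 92.9 CPM in siFOXA1_E2, and 55.7, 56.7 and 53.3 CPM in siMDC1_E2. All 9 of these libraries lay above all siNT_E2 and all siNT libraries. Relative to siNT_E2, EGFR rose by 0.85 ± 0.05 with siER_E2 (edgeR adjusted p = 5.1e-11), 1.49 ± 0.05 with siFOXA1_E2 (1.5e-14) and 0.77 ± 0.05 with siMDC1_E2 (2.5e-09). Relative to siNT it was higher by 0.70, 1.34 and 0.62 in the same order. The E2 effect in MM330 minus that in HCC1428 was -0.93 ± 0.21 (edgeR adjusted p = 0.00092), and for siER_E2 this difference was 0.80 ± 0.21 (edgeR adjusted p = 0.0036), while ESR1 was reduced less in HCC1428, as given above, and its part in the difference was not tested. For siFOXA1_E2 and siMDC1_E2 the difference between these lines was 0.25 ± 0.21 and 0.29 ± 0.21, not called.

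The summed basal markers were higher in siFOXA1_E2 than in siNT_E2 of MM330 and HCC1428, mostly through TP63. EGFR had its highest mean of each of these lines in siFOXA1_E2, but in MM330 this rests on replicate 1, at 28.0 CPM. The other siFOXA1_E2 libraries of MM330, at 15.2 and 14.96 CPM, lay below the siER_E2 libraries, at 17.5 to 18.2 CPM. The 6 basal markers summed to 15.03 to 18.3 CPM in siFOXA1_E2 and 0.851 to 1.38 CPM in siNT_E2 of MM330, and to 11.6 to 14.2 CPM in siFOXA1_E2 and 3.13 to 3.76 CPM in siNT_E2 of HCC1428. TP63 carried most of it, with means of 15.8 CPM in MM330 and 10.3 CPM in HCC1428 in siFOXA1_E2, and KRT5 was at 0 in HCC1428. The part of other cell types in the EGFR result was not tested, and in bulk RNA a change in the share of cells that express a gene and a change in RNA per cell cannot be told apart. EGFR-AS1, on the opposite strand of the EGFR locus, had at most 4 counts in a library, and whether the counting used strand is not given in the sources used here.

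ERBB3 (ENSG00000065361.15, chromosome 12, 56076799 to 56103505, plus strand), the neuregulin receptor with a weak kinase, was 2.12-fold lower with E2 in MM134 and 2.06-fold lower in HCC1428, and 1.11-fold lower in MM330. In MM134 it had 241, 248 and 251.1 CPM in siNT_E2, against 504, 530 and 525 CPM in siNT. In HCC1428 it had 257, 258 and 257 CPM in siNT_E2, against 528, 543 and 534 CPM in siNT. In MM330 it had 363, 370 and 363 CPM in siNT_E2, against 415, 400 and 414 CPM in siNT. All siNT_E2 libraries lay below the siNT libraries of their line, and the gene fell by 1.09 ± 0.03 on the log2 scale in MM134 (edgeR adjusted p = 8.9e-18), by 1.04 ± 0.03 in HCC1428 (7e-16) and by 0.15 ± 0.03 in MM330 (0.0013). The effect of E2 differed between MM330 and HCC1428 by 0.89 ± 0.05 (edgeR adjusted p = 2.9e-18) and between MM134 and HCC1428 by -0.02 ± 0.05, which was not called (edgeR adjusted p = 0.87).

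With siER_E2, ERBB3 stood near the level of siNT cells. The siER_E2 libraries held 538, 524 and 520 CPM in MM134, 565, 548 and 556 CPM in HCC1428, and 407, 413 and 381 CPM in MM330. Against siNT_E2 the rise was 1.12 in MM134, 1.08 in HCC1428 and 0.13 in MM330, all called, while ESR1 was left at 51.0% in HCC1428. The MM330 call was lost without the filter on low counts (edgeR adjusted p = 0.051). Against siNT the difference was 0.03 ± 0.03 in MM134 (edgeR adjusted p = 0.45) and 0.04 in HCC1428 (edgeR adjusted p = 0.38), neither called.

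The siMDC1_E2 and siFOXA1_E2 groups moved ERBB3 in different ways. In siMDC1_E2 it had 532, 560 and 564 CPM in MM134, 497, 492 and 470 CPM in MM330, and 409, 395 and 394 CPM in HCC1428, all above siNT_E2. The rises over siNT_E2 were 1.15 in MM134 (edgeR adjusted p = 5.6e-18), 0.41 in MM330 (7.5e-08) and 0.63 in HCC1428 (4.4e-11). In siFOXA1_E2 it had 190, 193 and 202 CPM in MM134, 305, 320 and 326 CPM in MM330, and 291, 289 and 277 CPM in HCC1428. Relative to siNT_E2 this was a fall of 0.33 in MM134 and of 0.21 in MM330 (log2), and a rise of 0.12 in HCC1428, and the difference between lines was -0.49 ± 0.05 for MM134 against HCC1428 (edgeR adjusted p = 8.3e-11). The rise in HCC1428 did not pass without the filter on low counts (0.11, edgeR adjusted p = 0.051). In all 3 lines ERBB3 was lower in siFOXA1_E2 than in siER_E2, by -1.45 in MM134, -0.34 in MM330 and -0.96 in HCC1428. The ESR1 transcript was itself low in MM134 siFOXA1_E2 and siMDC1_E2 cells, as given above, and its part in these differences was not tested.

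ERBB4 (ENSG00000178568.14, chromosome 2, 211375717 to 212538841, minus strand), a receptor of neuregulins and of several EGFR ligands, was a substantial transcript in HCC1428 alone of the 3 lines. There it had 44.8, 42.5 and 46.1 CPM in siNT_E2, against 102, 102 and 113 CPM in siNT, a fall of 1.23 ± 0.05 on the log2 scale (edgeR adjusted p = 4.7e-14). The siER_E2 libraries held 88.8, 87.8 and 81.0 CPM, the siFOXA1_E2 libraries 31.3, 32.3 and 32.3 CPM, and the siMDC1_E2 libraries 59.2, 55.7 and 56.2 CPM. Relative to siNT_E2, ERBB4 rose by 0.91 ± 0.05 with siER_E2 (edgeR adjusted p = 6.2e-12) and by 0.35 ± 0.05 with siMDC1_E2 (1.8e-05), and fell by 0.51 ± 0.05 with siFOXA1_E2 (5.9e-08). No HCC1428 group with E2 reached the siNT level, with -0.32 for siER_E2, -1.75 for siFOXA1_E2 and -0.88 for siMDC1_E2 against siNT, all called.

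In MM330, ERBB4 had 4.65, 4.36 and 3.80 CPM in siNT_E2, against 5.18, 5.55 and 5.22 CPM in siNT, and the difference of -0.30 ± 0.15 was not called. The siFOXA1_E2 libraries held 5.32, 8.44 and 7.51 CPM, above all siNT_E2 libraries, a rise of 0.72 ± 0.15 (edgeR adjusted p = 0.00067), and 0.87 without siFOXA1_E2 replicate 1, the lowest of the 3. This is the opposite direction to HCC1428, and the difference between the lines was 1.22 ± 0.14 (edgeR adjusted p = 7.1e-09). In MM134 the gene had 18, 8 and 7 counts in siNT_E2, against 29, 29 and 25 counts in siNT, and was called lower by -1.37 ± 0.36 (edgeR adjusted p = 0.003). The siER_E2 libraries of MM134, at 0.800 to 0.871 CPM, lay above the siNT_E2 libraries, at 0.259 to 0.475 CPM, with a rise of 1.31 ± 0.37 (edgeR adjusted p = 0.0041).

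**Figure D3:**
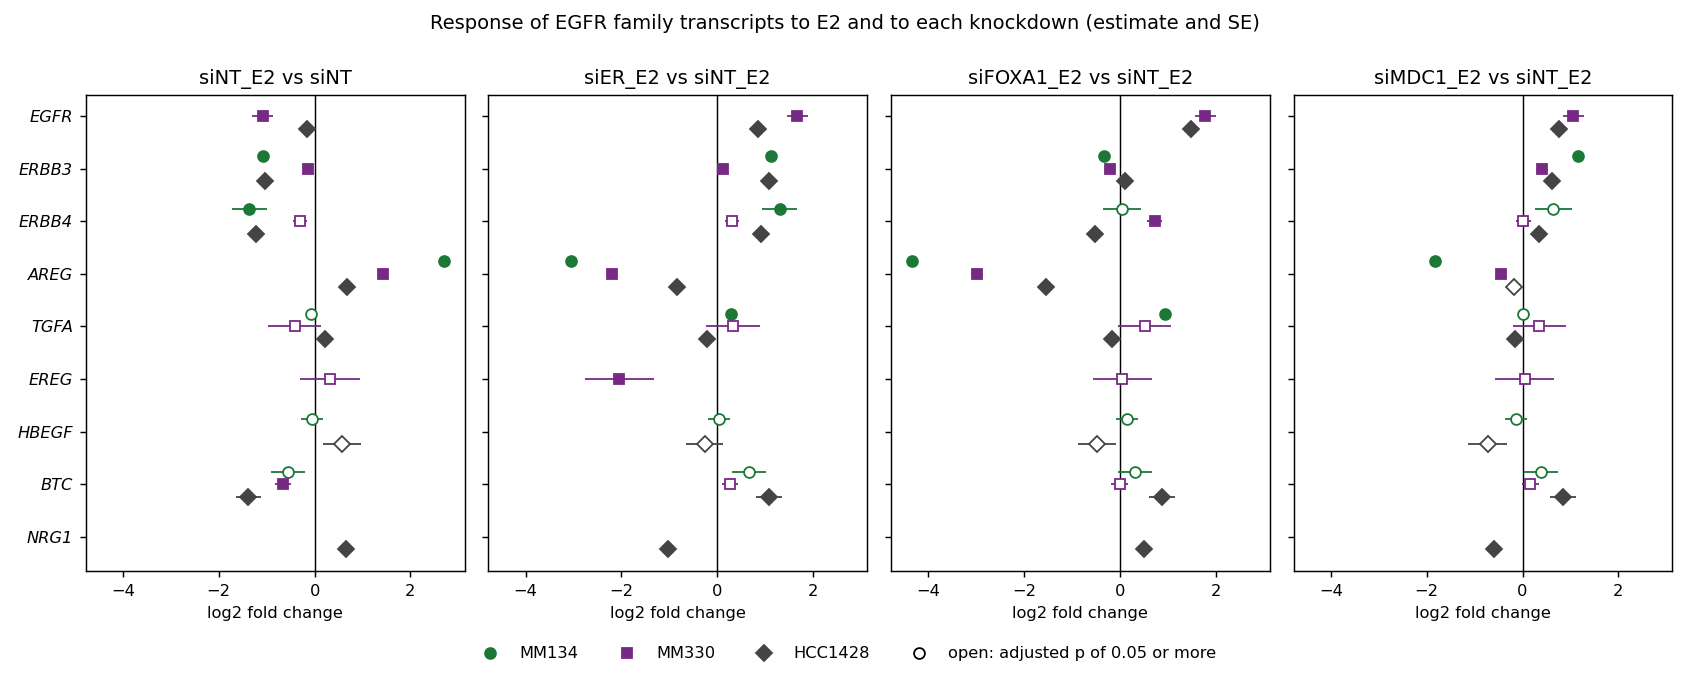
Log2 fold change with its standard error for each tested gene and line in the comparisons siER_E2, siFOXA1_E2 and siMDC1_E2 against siNT_E2 and siNT_E2 against siNT, with open symbols where the adjusted p is 0.05 or more. AREG is on the negative side in every knockdown and on the positive side with E2, though not called for siMDC1_E2 in HCC1428, with the farthest points in MM134 (-4.33 with siFOXA1_E2 and 2.70 with E2).

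AREG (ENSG00000109321.10, chromosome 4, 74445134 to 74455009, plus strand), the EGFR ligand amphiregulin, rose with E2 in all 3 lines and fell with siER_E2 and siFOXA1_E2 in all of them. In MM134 it had 127, 128 and 128 CPM in siNT_E2, against 22.8, 17.3 and 18.7 CPM in siNT. In MM330 it had 23.7, 25.5 and 30.6 CPM in siNT_E2, against 11.3, 8.94 and 9.75 CPM in siNT. In HCC1428 it had 8.54, 10.3 and 9.21 CPM in siNT_E2, against 5.30, 5.67 and 6.80 CPM in siNT. No siNT_E2 library overlapped a siNT library of its line, and the rise was 6.49-fold in MM134 (edgeR adjusted p = 2.5e-18), 2.70-fold in MM330 (1.8e-08) and 1.59-fold in HCC1428 (5.4e-05). Markers of other cell types also differed in level between these groups. VWF, an endothelial marker, averaged 6.73 CPM in siNT_E2 and 1.76 CPM in siNT of MM330, and 3.36 CPM in siNT_E2 and 0.707 CPM in siNT of HCC1428, and in siER_E2 it averaged 1.85 CPM in MM330 and 0.604 CPM in HCC1428. In siFOXA1_E2 it averaged 9.79 CPM in MM330. COL1A1, a fibroblast marker, averaged 81.0 CPM in siNT_E2 and 44.6 CPM in siNT of HCC1428, against 97.6 and 117 CPM in MM134. The other 3 endothelial and 5 fibroblast markers averaged under 1 CPM in each line, with CDH5 at 0 in all 3 lines and COL3A1 likewise, and the part of such cells in the E2 results of the 9 genes was not tested. The log2 rise of AREG was larger than that in HCC1428 by 2.06 ± 0.15 in MM134 (edgeR adjusted p = 4.5e-15) and by 0.77 ± 0.15 in MM330 (edgeR adjusted p = 9.8e-05).

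The siER_E2 libraries held 15.8, 15.6 and 14 CPM of AREG in MM134, 5.27, 5.91 and 6.18 CPM in MM330, and 5.12, 5.65 and 5.21 CPM in HCC1428. AREG was 8.30-fold lower than in siNT_E2 in MM134 (edgeR adjusted p = 6.1e-19), and it fell by 2.20 on the log2 scale in MM330 (1e-10) and by 0.84 in HCC1428 (4.9e-06). Against siNT, the siER_E2 level was lower by -0.35 in MM134 and by -0.77 in MM330, both called, and differed by -0.17 in HCC1428 (edgeR adjusted p = 0.36). The MM134 value was -0.23 without siNT replicate 1.

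The lowest AREG levels were in siFOXA1_E2 cells of every line. These libraries held 6.63, 5.42 and 6.77 CPM in MM134, 3.13, 3.62 and 3.36 CPM in MM330, and 3.50, 2.94 and 3.42 CPM in HCC1428. In MM134 that was 20.2-fold lower than in siNT_E2 (log2 change -4.33 ± 0.08, edgeR adjusted p = 1.3e-20), and the gene fell by 2.98 ± 0.12 in MM330 (7.4e-12, and -2.96 without siFOXA1_E2 replicate 1) and by 1.54 ± 0.12 in HCC1428 (3e-09). Against siNT cells, which had no E2, AREG was lower in siFOXA1_E2 by -1.64, -1.55 and -0.87 in MM134, MM330 and HCC1428. It was also lower than in siER_E2, by -1.28, -0.78 and -0.70 in the same order, with no overlap of libraries.

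In siMDC1_E2 cells AREG had 34.7, 37.9 and 35.7 CPM in MM134, 20.96, 18.0 and 19.4 CPM in MM330, and 8.59, 8.62 and 7.64 CPM in HCC1428. It fell relative to siNT_E2 by 1.83 ± 0.07 on the log2 scale in MM134 (edgeR adjusted p = 8.2e-16) and by 0.45 ± 0.10 in MM330 (edgeR adjusted p = 0.0031), and the -0.18 ± 0.11 of HCC1428 was not called (edgeR adjusted p = 0.25). Against siNT it remained higher in all lines, by 0.87 in MM134, 0.98 in MM330 and 0.49 in HCC1428. The HCC1428 value was 0.27 (edgeR adjusted p = 0.17) when the libraries of the higher pseudogene class were dropped, which leaves 1 siNT library. The differences between MM134 and HCC1428 were -2.27 for siER_E2, -2.85 for siFOXA1_E2 and -1.66 for siMDC1_E2, all called. In MM134 the ESR1 transcript was at 11.3% to 22.6% of siNT_E2 in all 3 knockdown groups, and its part in their AREG values was not tested.

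EREG (ENSG00000124882.3, chromosome 4, 74365143 to 74388751, plus strand), the neighbour of AREG, was close to the limit of detection, and its counts were too few to compare its pattern with that of AREG. Its counts in MM330 were 1, 1 and 6 in siER_E2, 12, 8 and 10 in siFOXA1_E2, 10, 13 and 10 in siMDC1_E2, 16, 11 and 6 in siNT_E2 and 8, 17 and 3 in siNT. The call of -2.04 ± 0.71 for siER_E2 against siNT_E2 (edgeR adjusted p = 0.037) rests on these few counts and was lost without siER_E2 replicate 1 (-1.70), siER_E2 replicate 2 (-1.66), siNT_E2 replicate 1 (-1.68) or siNT_E2 replicate 2 (-2.04). Without siER_E2 replicate 3 it was -3.29. With E2 the difference was 0.32 and not called (edgeR adjusted p = 0.8). MM134 had no EREG count in the 3 knockdown groups and at most 4 counts in a library elsewhere, and HCC1428 had at most 2 counts in a library.

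TGFA (ENSG00000163235.15, chromosome 2, 70447280 to 70554193, minus strand), transforming growth factor alpha, rose with siFOXA1_E2 in MM134 and showed smaller calls in HCC1428. In MM134 the siFOXA1_E2 libraries held 20.8, 21.9 and 20.3 CPM, above the 9.58, 12.6 and 11.0 CPM of siNT_E2, a rise of 0.93 ± 0.09 (edgeR adjusted p = 2.9e-09). AREG fell in the same libraries. With E2, TGFA in MM134 differed by -0.08 (edgeR adjusted p = 0.46), and siER_E2, at 12.5, 13.4 and 13.7 CPM, was higher than siNT_E2 by 0.28 ± 0.09, a call lost without siNT_E2 replicate 1 (0.18, edgeR adjusted p = 0.096). In HCC1428 the siNT_E2 libraries held 39.6, 33.4 and 40.3 CPM, against 32.1, 33.8 and 33.1 CPM in siNT. The groups overlap there, and the E2 call (0.22 ± 0.06, edgeR adjusted p = 0.0042) and the smaller calls lower with the 3 knockdowns (-0.22, -0.17 and -0.16) were all lost without siNT_E2 replicate 4 (0.13, -0.13, -0.10 and -0.11), and those for siFOXA1_E2 and siMDC1_E2 also without siNT_E2 replicate 2 (-0.14 and -0.13). The siFOXA1_E2 call was lost as well without siFOXA1_E2 replicate 2 (-0.15), and the siMDC1_E2 call without any 1 of the siMDC1_E2 replicates (-0.17, -0.17 and -0.14). The siFOXA1_E2 effect differed between MM134 and HCC1428 by 1.06 ± 0.18 (edgeR adjusted p = 1.2e-05). Between MM330 and HCC1428 the difference of 0.73 was not called (edgeR adjusted p = 0.16), but it was without MM330 siFOXA1_E2 replicate 1 (1.08, edgeR adjusted p = 0.01). In MM330 the gene stayed between 0.142 and 1.21 CPM in all libraries and was called in none of the 10 comparisons between its groups.

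HBEGF (ENSG00000113070.7, chromosome 5, 140332843 to 140346631, minus strand), which binds EGFR and ERBB4, was low in every line, at 1.09 to 1.85 CPM in MM134, 0.240 to 0.906 CPM in HCC1428 and at most 0.476 CPM in MM330. It was called in none of the 20 comparisons between groups of MM134 and HCC1428, and the HCC1428 value with E2 was 0.57 ± 0.40. BTC (ENSG00000174808.11, chromosome 4, 74744759 to 74794686, minus strand), betacellulin, was highest in MM330, at 4.04, 5.78 and 4.12 CPM in siNT_E2 against 8.55, 5.66 and 8.28 CPM in siNT. Those groups overlap in 1 library, and BTC fell by 0.67 ± 0.17 on the log2 scale with E2 (edgeR adjusted p = 0.0071). In HCC1428 it had 0.722, 0.749 and 0.322 CPM in siNT_E2, against 1.52, 1.62 and 1.51 CPM in siNT, a fall of 1.38 ± 0.26 with no overlap (edgeR adjusted p = 0.00018). It was higher in siER_E2 of HCC1428 by 1.08 ± 0.27 (edgeR adjusted p = 0.0021), and the calls for siFOXA1_E2 (0.87) and siMDC1_E2 (0.85) were lost without siNT_E2 replicate 4 (0.58 and 0.53).

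NRG1, neuregulin 1, the ligand of ERBB3 and ERBB4, was measured in HCC1428, while MM330 had 1 count in all 15 libraries and MM134 at most 2 counts in a library. In HCC1428 it had 8.52, 9.61 and 9.30 CPM in siNT_E2, against 6.24, 6.11 and 5.248 CPM in siNT, a rise of 0.65 ± 0.11 (edgeR adjusted p = 4.5e-05). The siER_E2 libraries held 3.91, 4.77 and 5.08 CPM, the siFOXA1_E2 libraries 13.4, 12.9 and 13.3 CPM, and the siMDC1_E2 libraries 6.71, 5.78 and 5.81 CPM. All of these lay apart from siNT_E2, with falls of 1.02 ± 0.11 in siER_E2 (edgeR adjusted p = 2.7e-07) and 0.59 ± 0.11 in siMDC1_E2 (0.00039) and a rise of 0.49 ± 0.11 in siFOXA1_E2 (0.00057). AREG and NRG1 thus moved the same way with E2 and siER_E2 in HCC1428 and opposite ways with siFOXA1_E2. In siFOXA1_E2 NRG1 was higher than in siER_E2 by 1.52 ± 0.11 (edgeR adjusted p = 1.4e-09) and than in siNT by 1.15.

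Counted over the genes tested, E2 against vehicle called 3 of 6 in MM134 (1 higher, 2 lower), 4 of 7 in MM330 (1 higher, 3 lower) and 7 of 8 in HCC1428 (3 higher, 4 lower), where 54.4%, 26.3% and 54.8% of all genes tested were called. For siER_E2 against siNT_E2 the counts were 4 of 6, 4 of 7 and 7 of 8 in the same order of lines, against 57.2%, 32.5% and 51.2% of all genes. For siFOXA1_E2 against siNT_E2 they were 3 of 6, 4 of 7 and 7 of 8, against 56.3%, 49.0% and 53.6%. For siMDC1_E2 against siNT_E2 they were 2 of 6, 3 of 7 and 6 of 8, against 50.3%, 20.8% and 29.1%. The shares of the genes tested lie on both sides of the background in MM134 and above it in MM330 and HCC1428, on counts of 6, 7 and 8 genes. Each of these HCC1428 counts includes a TGFA call that was lost without siNT_E2 replicate 4. Those for siFOXA1_E2 and siMDC1_E2 also include a BTC call lost without that library.

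Relative to siNT, the siER_E2 cells had 1 of 6 called in MM134, 1 of 7 in MM330 and 3 of 8 in HCC1428, where 32.3%, 20.2% and 21.2% of all genes were called. The siFOXA1_E2 cells differed from siNT in 4, 5 and 5 genes against 56.8%, 46.9% and 48.5% of all genes, and the siMDC1_E2 cells in 1, 3 and 4 against 49.1%, 34.9% and 48.4%. Between knockdowns, siFOXA1_E2 against siER_E2 called 4, 4 and 5 genes (51.3%, 45.9% and 42.9% of all genes), siMDC1_E2 against siER_E2 2, 4 and 4 (45.6%, 30.6% and 41.1%), and siMDC1_E2 against siFOXA1_E2 3, 4 and 5 (49.8%, 48.8% and 45.4%). AREG was called in all 9 of these comparisons between knockdowns, and ERBB3 in 8 of them, the exception being siMDC1_E2 against siER_E2 in MM134 (0.03 ± 0.03).

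The effects were also compared between lines over all 9 genes, which passed the filter on the 45 libraries together. EGFR had no count in MM134, NRG1 had almost none in MM134 and MM330, and EREG almost none in MM134 and HCC1428. An effect of these genes in such a line could not be estimated, so a missing call for them does not show a like effect. MM134 differed from HCC1428 in 1 gene for E2, 1 for siER_E2, 3 for siFOXA1_E2 and 2 for siMDC1_E2, where 26.5%, 24.5%, 30.5% and 18.6% of all genes were called. MM330 differed from HCC1428 in 4, 4, 3 and 1 genes in that order, against 28.3%, 25.3%, 22.2% and 13.8% of all genes. AREG and ERBB3 accounted for most of them, with AREG called in 7 and ERBB3 in 6 of these 8 comparisons.

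Of 78 genes listed as other parts of the pathway (5 lists, namely other ligands, ligand release, receptor restraint, signal relay, and MAPK feedback and output), 73 were tested in MM134, 70 in MM330 and 70 in HCC1428. With E2, 24 were higher and 27 lower in MM134, 10 and 20 in MM330, and 25 and 28 in HCC1428, which is 69.9%, 42.9% and 75.7% of those tested, beside the 54.4%, 26.3% and 54.8% of all genes. The MAPK feedback and output list had 20 genes, of which 7 were higher and 7 lower with E2 in MM134, 1 and 9 in MM330, and 3 and 8 in HCC1428, of 19, 19 and 16 tested. Its median log2 change with E2 was -0.14, -0.39 and -0.50 in MM134, MM330 and HCC1428, where the median of all genes was -0.03, -0.004 and -0.03. The phosphatase gene DUSP6, a feedback inhibitor of ERK, was lower with E2 in all lines, at 64.6 CPM in siNT_E2 against 130 CPM in siNT of MM134, 26.5 against 61.4 CPM in MM330, and 0.262 against 0.640 CPM in HCC1428. It was higher with siER_E2 than with siNT_E2 in every line, by 1.04, 0.67 and 2.13, and with siFOXA1_E2 by 0.51, 0.94 and 1.21.

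**Figure D4:**
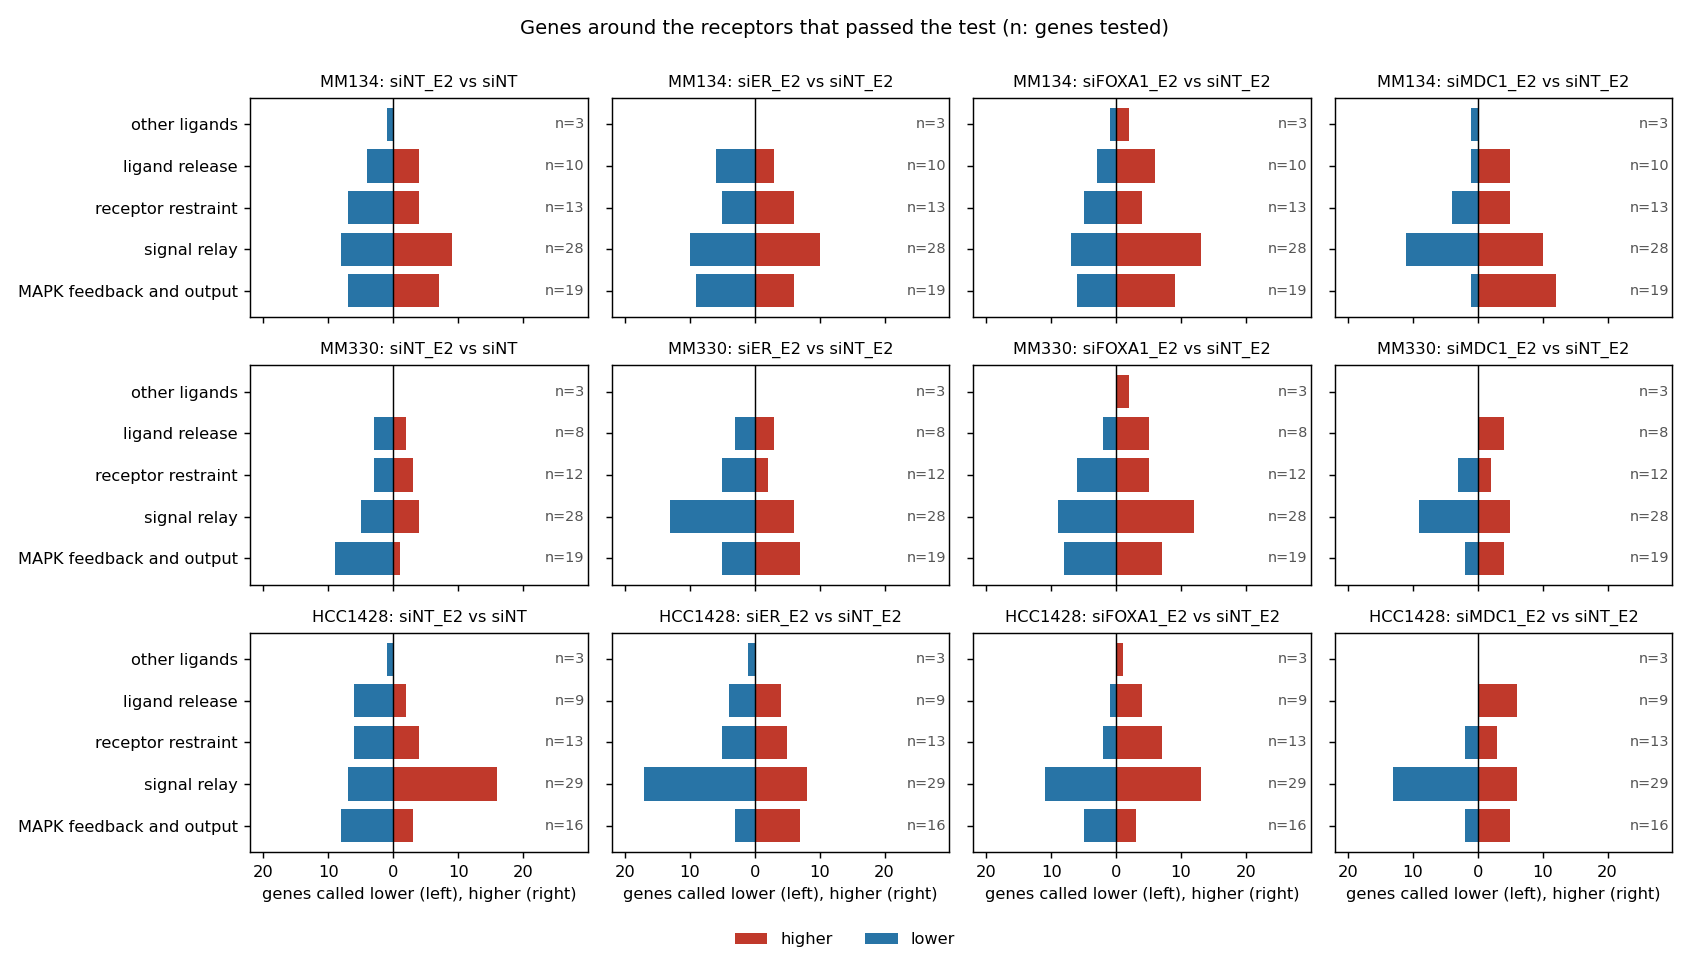
Number of genes called higher (right of 0) and lower (left of 0) in each of the 5 pathway lists, with a row of panels for each line and columns for siNT_E2 against siNT and for siER_E2, siFOXA1_E2 and siMDC1_E2 against siNT_E2 (n is the number of genes tested). The MAPK feedback and output list has 1 gene higher and 9 lower with E2 in MM330, and 12 higher and 1 lower with siMDC1_E2 in MM134.

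With siER_E2, 6 genes of the MAPK feedback and output list were higher and 9 lower in MM134, 7 and 5 in MM330, and 7 and 3 in HCC1428. That is 78.95%, 63.2% and 62.5% of the 19, 19 and 16 tested, beside 57.2%, 32.5% and 51.2% of all genes. With siMDC1_E2, 12 were higher and 1 lower in MM134, 4 and 2 in MM330, and 5 and 2 in HCC1428, which is 68.4%, 31.6% and 43.75% beside 50.3%, 20.8% and 29.1% of all genes. With siFOXA1_E2, 9 genes of the list were higher and 6 lower in MM134, 7 and 8 in MM330, and 3 and 5 in HCC1428. That is 78.95%, 78.95% and 50% of those tested, beside 56.3%, 49.0% and 53.6% of all genes. The median log2 change of the list was 0.09, -0.17 and -0.36, and that of all genes 0.01, -0.01 and -0.03. The list as a whole did not rise with DUSP6 in MM330 and HCC1428. A difference between the lines in this list was not tested. SPRY4, an inhibitor of RAS signalling, rose with E2 in MM134 (0.47) and fell in MM330 (-0.39), ETV5 fell with E2 in MM330 (-0.69) and EGR1 fell in MM134 (-0.30) and MM330 (-1.57). CCND1, the cyclin D1 gene, was higher with E2 in MM134 (1.05) and HCC1428 (0.87), differed by -0.03 in MM330, and was lower with siFOXA1_E2 in all lines, by -1.29, -1.25 and -1.18.

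Receptor restraint genes, which limit receptor activity or take receptors to degradation, numbered 13 on the list, with 4 higher and 7 lower with E2 in MM134, 3 and 3 in MM330, and 4 and 6 in HCC1428. Of the 13, 12 and 13 tested, 84.6%, 50% and 76.9% were called, beside 54.4%, 26.3% and 54.8% of all genes. The median log2 change of that list with E2 was -0.19, -0.05 and -0.03 in the same order, beside the medians of all genes given above. ERRFI1, an inhibitor that binds the EGFR kinase, averaged 156 CPM in siFOXA1_E2 and 51.5 CPM in siNT_E2 of MM134, and rose by 1.61 (log2) there, 1.61 in MM330 and 1.27 in HCC1428. LRIG1, which promotes the loss of these receptors, ran opposite to ERBB3 with E2, higher by 1.495, 0.79 and 0.36 in MM134, MM330 and HCC1428. It was lower with siER_E2 in every line, by -0.95, -0.46 and -0.21, and with siFOXA1_E2 by -2.33 in MM134 and -0.35 in MM330.

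Of the ligand release genes, siMDC1_E2 gave 5 higher and 1 lower of 10 tested in MM134, 4 and 0 of 8 in MM330, and 6 and 0 of 9 in HCC1428. These are 60%, 50% and 66.7% of those tested, beside 50.3%, 20.8% and 29.1% of all genes, and the others were not called. The median log2 change of the list was 0.17, 0.16 and 0.21, where that of all genes was -0.0004, 0.002 and -0.01. With siFOXA1_E2 the median of the list was 0.15, 0.17 and 0.02, and with siER_E2 it was -0.35, 0.0004 and -0.04. The sheddase ADAM17 was called higher with siMDC1_E2 by 0.50, 0.25 and 0.30, and RHBDF1, a regulator of ADAM17, by 0.78, 0.26 and 0.13 in MM134, MM330 and HCC1428. Such rises were not particular to siMDC1_E2. With siER_E2, RHBDF1 was called higher by 0.21, 0.51 and 0.48. ADAM17 was called higher with siER_E2 in MM134 (0.38) and HCC1428 (0.15), but not in MM330 (0.08). With siFOXA1_E2, ADAM17 was called higher in MM330 (0.20) and HCC1428 (0.38), and RHBDF1 in MM134 (0.64) and MM330 (0.30). RHBDF1 was lower with E2 in every line, by -0.40, -0.30 and -0.57. In the signal relay list of 30 genes, E2 gave 9 higher and 8 lower in MM134, 4 and 5 in MM330, and 16 and 7 in HCC1428, with medians of 0.03, -0.009 and 0.10. That is 60.7%, 32.1% and 79.3% of the 28, 28 and 29 tested, beside the same shares of all genes as for receptor restraint. PIK3R3, a regulatory subunit of PI3 kinase, was higher with siFOXA1_E2 in all lines, by 0.83, 1.15 and 1.21. Among other ligands, EGF was low, at 1.46 to 3.86 CPM as a group mean in these comparisons, and was higher with siFOXA1_E2 by 1.15, 0.59 and 0.54. EPGN was higher with siFOXA1_E2 in MM134 (1.75) and MM330 (2.71), at means of 0.536 and 0.863 CPM. NRG3 had 0.00974 CPM in siFOXA1_E2 and 0.263 CPM in siNT_E2 of MM134. NRG4, tested in HCC1428, was lower with siER_E2 by -1.49 (edgeR adjusted p = 0.007), at a mean of 0.354 CPM in siER_E2 and 0.989 CPM in siNT_E2. NRG2, also tested in HCC1428, averaged 0.945 to 1.24 CPM over the groups and was called neither with E2 nor with a knockdown against siNT_E2.

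Likeness in pattern was measured as Pearson's r over the 15 group means of log2(CPM + 1), each centred on its line, among 11821 genes that reached 10 CPM in a group. The 15 means share libraries within a group and a common scaling, and r is a description only. AREG was most like SMARCC1 (0.954), ADD3 (0.954) and IQCB1 (0.952), and ERBB3 most like ADPRHL1 (0.944), TRIB1 (0.937) and CABLES1 (0.934). The genes most like EGFR were ATP10D (0.915), GULP1 (0.879) and CHRM1 (0.857), and those most like ERBB4 were F7 (0.936), OMA1 (0.933) and TTC12 (0.911). NRG1 was most like TMC3 (0.992), GJA1 (0.955) and AC103770.1 (0.944), BTC most like USP40 (0.929), CA5B (0.914) and SMIM20 (0.908), and HBEGF most like APTX (0.842), GON7 (0.776) and P2RX4 (0.773). NRG1 averaged at most 0.0248 CPM in any MM134 or MM330 group, so its r rests on the HCC1428 groups. That of EGFR has no variation from MM134. HBEGF averaged at most 1.64 CPM in a group, so its r rests on small differences. TGFA was most like OSBP2 (0.968) and PGS1 (0.942), and a gene ranked between them has a symbol altered to a date in the table. Ordered by level over the 15 groups, 6 of 14 neighbouring groups had overlapping libraries for ERBB3 and ERBB4, 7 of 14 for EGFR and AREG, and 10 to 14 of 14 for the remaining ligands.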

How the data were processed

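Polyadenylated RNA of 45 samples was sequenced as paired reads of 150 bases (stranded mRNA libraries), per the labels' protocols. The submitters' processing notes name STAR 2.6.0a, limma and the GRCh38 build. The deposited table holds the authors' raw counts per gene symbol, not normalized, and the counting tool, its annotation and its use of strand are not given in the sources used here. No column of per-sample values was left unmapped. Of 57353 symbols, 56598 matched GENCODE 29, from which positions, exon lengths and gene types were taken.

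Genes were filtered per line with filterByExpr, scaled by TMM and tested by edgeR 4.0.16's quasi-likelihood test (R 4.3.3) on the 15 libraries of a line, with groups as the only term. Differences between lines used all 45 libraries. Calls were made at an adjusted p under 0.05 (Benjamini-Hochberg over all genes tested). The standard error is the log2 fold change divided by the root of F. Levels are CPM on TMM-scaled totals. The code of the fits was also run on simulated counts, with the same spread for all genes and no outlying libraries. Replicates in these data differed unevenly, so that run does not measure how the fits behave on them. Alternatives were RLE scaling, no filter, a replicate block, DESeq2 1.42.0, limma-voom (limma 3.58.1), a term for the pseudogene class, the lower-share libraries alone, the compared libraries alone, and each library left out.

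The genes named are all 9 members, the 3 siRNA targets, 10 listed pathway genes taken whatever their values, every other listed ligand that passed the filter, and the genes most like each member. The members, lists and alternatives were chosen with earlier results of these data known.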

Additional observations from a re-analysis of the deposited data

Results flagged for a closer look

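The effects below differed between lines in a test of the difference itself (edgeR's quasi-likelihood test over all 45 libraries, adjusted p under 0.05 over all genes), and are given as the log2 effect in the first line minus that in HCC1428. For MM134 the AREG effect differed by 2.06 with E2, -2.27 with siER_E2, -2.85 with siFOXA1_E2 and -1.66 with siMDC1_E2. The ERBB3 effect differed by -0.49 with siFOXA1_E2 and 0.53 with siMDC1_E2, and the TGFA effect by 1.06 with siFOXA1_E2.

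For MM330 the E2 effect differed by -0.93 for EGFR, 0.89 for ERBB3, 0.93 for ERBB4 and 0.77 for AREG. The siER_E2 effect differed by 0.80 for EGFR, -0.98 for ERBB3, -0.63 for ERBB4 and -1.39 for AREG. The siFOXA1_E2 effect differed by -0.35 for ERBB3, 1.22 for ERBB4 and -1.48 for AREG, and the siMDC1_E2 effect by -0.22 for ERBB3. In siER_E2 cells ESR1 was left at 11.3% in MM134 and 7.82% in MM330, against 51.0% in HCC1428, and its part in these differences was not tested.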

How the results depend on the processing

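No called value changed sign under any alternative run, while some values that were not called did. Of 2163 recomputed values of single genes (libraries left out aside), 2112 kept their side of the threshold, 43 lost a call and 8 gained one, and with each library left out these were 2217, 60 and 9 of 2286. In MM330, siER_E2 against siNT_E2 called 2 genes without the filter, where the report has 4, and siER_E2 against siNT called 2 in place of 1 without the filter, with DESeq2, with limma-voom, with the pseudogene term and with the compared libraries alone, EGFR being the gene gained. With the compared libraries alone, siFOXA1_E2 against siNT in MM330 called 3 in place of 5, and siFOXA1_E2 against siER_E2 2 in place of 4. The siER_E2 difference between MM134 and HCC1428 called 2 in place of 1 without the filter and with limma-voom (TGFA, 0.47 and 0.46). With libraries left out, the counts ran from 1 to 2 for siMDC1_E2 against siER_E2 and against siNT in MM134, from 1 to 2 for siER_E2 against siNT in MM330, from 2 to 4 for siFOXA1_E2 and siMDC1_E2 against siER_E2 in MM330, from 3 to 5 for siFOXA1_E2 against siNT in MM330, and from 1 to 2 for the siER_E2 difference between MM134 and HCC1428. Only counts that changed by more than 1.5-fold are listed here. Among the smaller changes, TGFA in HCC1428 lost its call with E2 and with each knockdown when siNT_E2 replicate 4 was left out. BTC lost its calls with siFOXA1_E2 and siMDC1_E2 in the same way. The cause of these moves was not tested. The replicate numbers did not pair the libraries: same-numbered libraries had a median correlation of deviations of -0.00349, -0.0133 and -0.00413 in MM134, MM330 and HCC1428. In HCC1428 the siNT_E2 libraries are numbered 2, 3 and 4, and no other group of that line has a 4. The replicate block thus fitted siNT_E2 replicate 4 by itself, which left replicates 2 and 3 to represent siNT_E2 there. With the replicate block, the calls lost were EREG in MM330 for siER_E2 against siNT_E2 (-1.93) and siMDC1_E2 against siER_E2 (2.02), and in HCC1428 EGFR with E2 (-0.11), TGFA with siER_E2, siFOXA1_E2 and siMDC1_E2 (-0.17, -0.13 and -0.12) and BTC with siFOXA1_E2 and siMDC1_E2 (0.53 and 0.51), and between siNT groups BTC in MM134 against HCC1428 (-0.44) and EREG in MM134 against MM330 (-1.37). Depth limits EREG, HBEGF and ERBB4 in MM134, which rest on few counts.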
